A study of Mus musculus with 8 samples.

Results

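The 48 genes described here encode the machinery that copies DNA in S phase. They were taken by name, through their gene identifiers, from a table of 26589 mouse genes, and all 48 were found and had enough signal to be tested. The list holds 10 genes of origin licensing, 6 of helicase activation, 8 of the DNA polymerases and primase, 6 of the sliding clamp and its loader, 5 of single strand binding and Okazaki fragment maturation, 5 of chromatin copying, 4 of deoxynucleotide synthesis and 4 of S phase entry. RNA came from splenic B cells of IL-10-eGFP Tiger mice, whose cells fluoresce green when they transcribe Il10. All cells had been cultured with lipopolysaccharide (LPS), the Toll-like receptor 4 ligand that drives B cells to divide, at 3 µg/ml for 48 h, and were then sorted into IL-10+ and IL-10- fractions with 4 libraries each. Both groups therefore carry the same reporter allele and had the same stimulus, and no unstimulated library was part of the comparison. The labels also hold a treatment tag reading "untreated", which stands against the protocol, and they give neither the age of the mice nor whether a library stands for 1 mouse or a pool.

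Before S phase the origin recognition complex, Cdc6 and Cdt1 load the Mcm2 to Mcm7 helicase onto origins, which is called licensing. Cdc45 and the GINS complex then switch the helicase on, and DNA polymerase α with primase starts each strand. Polymerases ε and δ extend the strands while held on DNA by the ring-shaped clamp Pcna, which the Rfc complex loads. Many of these genes are targets of the E2F transcription factors, whose activity rises when cyclin E with Cdk2 inactivates the retinoblastoma proteins, and their transcripts peak around the start of S phase. LPS-stimulated B cells divide and in part become antibody-secreting plasmablasts.

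The values are FPKM (fragments scaled to transcript length and to the size of the library), which are comparable between genes because they are divided by gene length. The 8 libraries held 27380392 to 29968278 reads as recovered from the table, so that a single read on 1 kb of transcript equals 0.0334 to 0.0365 FPKM. Il10, on which the cells were sorted, averaged 36.9 ± 5.32 FPKM in the sorted IL-10+ fraction against 3.17 ± 1.48 FPKM in the other (SD, n = 4), so the IL-10- libraries were not free of it. The 8 B cell markers summed to 1457 to 1972 FPKM in IL-10- and 1305 to 1640 FPKM in IL-10+ libraries. The 10 plasmablast markers summed to 353 to 497 FPKM against 1529 to 1583 FPKM, and immunoglobulin genes took 3.73% to 4.73% against 13.2% to 16.8% of the summed FPKM. All 10 plasmablast markers rose and 3 of the 8 B cell markers fell (6 fell and 2 rose in the blocked fit explained below). Markers of other cell types summed to 4.82 to 6.35 against 2.48 to 4.58 FPKM for T cells, 0.1 to 0.571 against 0.0933 to 0.554 FPKM for NK cells and 16.7 to 26.1 against 14 to 21.6 FPKM for myeloid cells. For neutrophils the sums were 0.313 to 1.41 against 0.274 to 0.580 FPKM and for erythroid cells 2.17 to 3.23 against 0.807 to 1.41 FPKM. Of these lists 2 of 9, 0 of 5, 2 of 8, 1 of 6 and 1 of 7 markers in the table reached 1 FPKM in any library, none was at 0 in all 8 libraries, and Lck, Prf1, Flt3, S100a9 and Hbb-bt were the most abundant. Lck and Hbb-bt were called lower in IL-10+ cells without the block, and Flt3 with it and within replicates 3 and 4 alone. The part of other cell types in the results below was not tested. In bulk libraries fewer cells of a type and less RNA per cell cannot be told apart, so a lower level below can mean fewer cells in S phase or less transcript in each.

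A replicate number, 1 to 4, is shared between the groups. The labels do not say what it stands for, but deviations from the group means of same-numbered libraries correlated across genes at 0.712, 0.583, 0.621 and 0.700, in each case the best match of that library. Libraries of different numbers also correlated, at 0.279 to 0.435, within replicates 1 and 2 and within 3 and 4. Between these sets the values were -0.612 to -0.385. A second fit with the number as a block is given beside the first, and that block also takes out the difference between these sets. Since no label ties a library to its own mouse or culture, p-values reflect library-to-library spread and that spread may be technical.

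Words bound by E2F factors were counted at the start sites of the 48 genes, a property that the choice of the genes did not use. RefSeq start sites (build GRCm38.p6, 250 bases before to 50 after the start) were given for 40 members and not for Ccne2, Gins1, Gins2, Gins4, Mcm4, Pole, Prim2 and Rfc2, and a gene with several start sites counted if any of them matched. The words searched were TTTCCCGC, TTTCGCGC, TTTGCCGC and TTTGGCGC, on both strands, and they can overlap one another. At least 1 of them occurred in 16 of the 40 members (40%), in 704 of 27025 genes of the promoter table (2.61%) and in 403 of 7735 tested genes (5.21%). The next sequences, 5′ to 3′ on the gene's own strand with the words in capitals, lie within 250 bases before the start site and are shown because the genes behind them went different ways in IL-10+ cells.
Dnmt1: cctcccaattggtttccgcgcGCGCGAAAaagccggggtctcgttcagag
Uhrf1: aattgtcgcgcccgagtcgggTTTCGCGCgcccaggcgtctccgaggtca
Pola1: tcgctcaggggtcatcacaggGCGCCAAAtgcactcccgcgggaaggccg
Cdc6: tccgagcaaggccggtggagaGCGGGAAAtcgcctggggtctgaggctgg
Mcm6: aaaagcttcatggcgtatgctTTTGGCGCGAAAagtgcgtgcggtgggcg
Orc1: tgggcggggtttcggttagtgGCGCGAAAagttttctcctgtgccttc
These windows are chr9:20952814-20952863 (minus strand, Dnmt1), chr17:56304107-56304156 (plus strand, Uhrf1), chrX:93632265-93632314 (minus strand, Pola1), chr11:98907992-98908041 (plus strand, Cdc6), chr1:128359787-128359836 (minus strand, Mcm6) and chr4:108579406-108579453 (plus strand, Orc1). In Dnmt1, Pola1, Cdc6 and Orc1 the word reads on the opposite strand, and in Mcm6 a word of each strand overlaps in 1 run of capitals. Dnmt1, Uhrf1 and Pola1 fell in IL-10+ cells, Cdc6 rose in the blocked fit, and Mcm6 and Orc1 passed in neither direction. The words occurred in 4 of 9 members called lower without the block (44.4%; Dnmt1, Pola1, Pold1 and Uhrf1) and in 12 of 31 others (38.7%). Counting only the 250 bases before the start, 10 of 40 members (25%) and 2.16% of all genes held a word. Such a match describes these letters only and is no binding site.

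How many of the 48 genes differed between the groups depended on the replicate block, with 11 called without it and 32 with it, most of them lower in IL-10+ cells. In the fit without a block, limma on log2(FPKM + 1) over 11329 tested genes with Benjamini-Hochberg adjustment at 0.05, 11 of 48 members (22.9%) fell, against 9.18% of all tested genes called lower. The 11 are Pold1, Pole and Pola1, Rfc1 and Rfc2, Chaf1b, Uhrf1 and Dnmt1, Tyms and Tk1, and E2f1. No member rose, where 10.6% of all tested genes were called higher. The falls were small, 15.8% to 29.3% of the IL-10- mean (log2 -0.46 to -0.23), and no member's group means differed by more than 1.5-fold. The count was 5 without IL-10- replicate 2 or IL-10+ replicate 3 or 4, 6 without IL-10- replicate 3 or 4 or IL-10+ replicate 1 or 2, and 9 without IL-10- replicate 1. These 9 hold 8 of the 11, with Rfc3 added. All genes called lower fell in number as well, from 1040 of 11329 to between 600 of 11188 (without IL-10+ replicate 3) and 940 of 11104 (without IL-10+ replicate 1). The median log2 change was -0.13 over the 48 members and -0.057 over all tested genes, and 37 of 48 members (77.1%) lay below 0 against 60.7% of all genes. Single libraries moved this median by more than 1.5 times. Without IL-10+ replicate 1 it was -0.046, with 64.6% of members below 0, against -0.057 and 60.8% for all genes. There the median of the members no longer lay lower, while their share below 0 was still the larger. Without IL-10- replicate 1 the median was -0.20 (87.5% below 0), and without IL-10- replicate 3 or 4 it was -0.081.

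With the replicate number as a block, 27 members fell and 5 rose, where 33.3% of all tested genes were called lower and 20.4% higher in the same fit. The 5 that rose, Cdc6, Cdt1, Cdc45, Rfc4 and Rrm2, are thus 10.4% of the list, a smaller share than in all genes. The block takes out the spread that libraries of the same number share. Within all 4 numbers the IL-10+ library was the lower for 29 members (and for 40.4% of all tested genes), the higher for 6 (24.3% of all genes), and neither for 13. In 10 members all 4 IL-10+ values lay under all 4 IL-10- values, which held for 13% of all tested genes, and no member had the reverse.

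**Figure D1:**
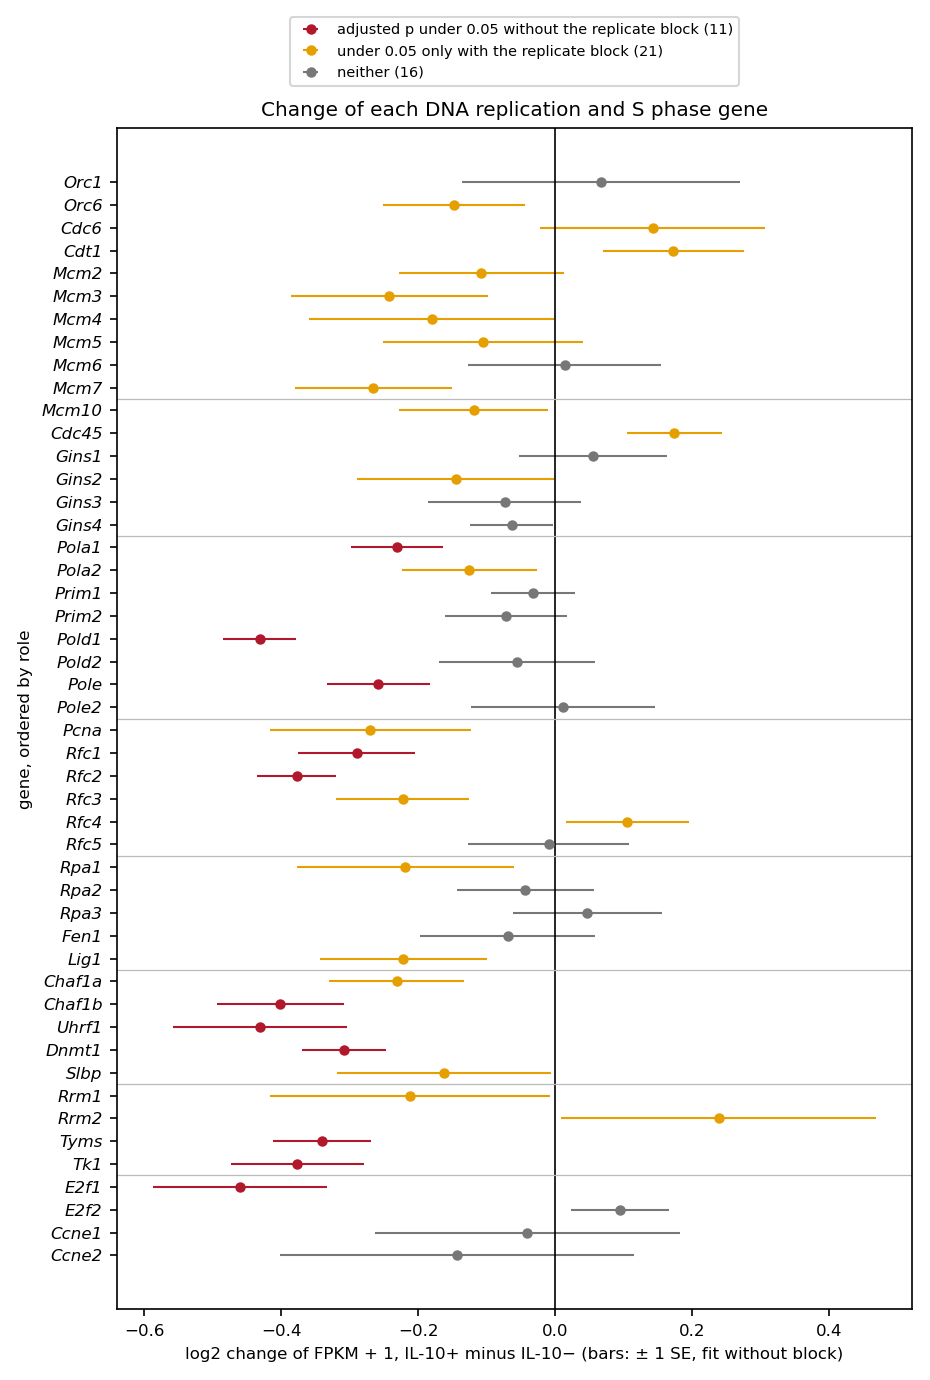
Log2 change of FPKM + 1 in IL-10+ against IL-10- cells for each of the 48 genes, grouped by role between grey lines, with bars of 1 SE from the fit without the block. The 11 red points, called without the block, lie between -0.46 and -0.23, and the 21 orange points were called only with the block.

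Immunoglobulin RNA takes a larger share of the IL-10+ libraries, so the same fits were made after other scalings. With median-of-ratios scaling 6 members fell (Pold1, Rfc2, Chaf1b, Dnmt1, Tyms and Tk1) and none rose, against 7.71% lower and 11.2% higher among all genes. With scaling that leaves out immunoglobulin and mitochondrial genes, the same 6 and E2f1 fell and none rose, against 6.94% lower and 11.4% higher. With the block as well, 23 members fell and 6 rose under either scaling, where 28.1% of all genes were lower and 22.4% higher under the first and 27.5% and 22.5% under the second. The 23 were among the 27, and the 6 were the 5 named above with Rpa3. The part that the larger plasmablast and immunoglobulin signal plays in the remaining differences was not tested.

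Of the 10 origin licensing genes 0 passed without the block, and with it 6 fell (Orc6, Mcm2, Mcm3, Mcm4, Mcm5, Mcm7) and 2 rose (Cdc6, Cdt1). In that blocked fit 33.3% of all tested genes were called lower and 20.4% higher, and without the block 9.18% and 10.6%. Mcm3, a helicase subunit and the most abundant licensing gene, stood at 132, 166, 184 and 181 FPKM in IL-10- replicates 1 to 4 and at 111, 138, 157 and 155 FPKM in IL-10+ replicates 1 to 4. The groups overlap, since the lowest IL-10- library lies under 3 of the IL-10+ libraries, but within each number the IL-10+ library was lower. The log2 change of Mcm3 was -0.24 (SE 0.144, limma adjusted p = 0.287 without and 0.000723 with the block).

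Mcm7, another helicase subunit, behaved the same way. Its levels were 100.4, 122, 132 and 126 FPKM in IL-10- replicates 1 to 4 and 82.7, 101, 108 and 107 FPKM in IL-10+ replicates 1 to 4 (log2 change -0.27, SE 0.115, limma adjusted p = 0.148, with the block 0.000523). Replicate 1 is the lowest of each group, and the overlap comes from it alone. Mcm4 went from 119.6 ± 21.1 to 106 ± 21.7 FPKM (adjusted p with the block 0.00521), Mcm5 from 156 ± 22.7 to 145 ± 23.6 FPKM (0.0193) and Mcm2 from 57.1 ± 6.83 to 52.9 ± 6.73 FPKM (0.0133; SD, n = 4 throughout). Mcm6, the sixth subunit of the same ring, stood at 115 ± 17.1 and 117 ± 17.0 FPKM and passed in neither fit (adjusted p = 0.962 and 0.693). Adding either scaling described above to the block ended the call of Mcm5 (0.0536 and 0.0609).

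Cdt1 and Cdc6, the loaders of the helicase, lay on the other side of 0. Cdt1 stood at 44.6, 38.5, 39.0 and 35.1 FPKM in IL-10- replicates 1 to 4 and at 49.5, 46.1, 44.6 and 37.7 FPKM in IL-10+ replicates 1 to 4. It was highest in replicate 1 of both groups, and each IL-10+ library exceeded its partner although the groups overlap (log2 change 0.17, SE 0.103, adjusted p = 0.284 without and 0.0074 with the block). Cdc6 went from 26.0 ± 4.36 to 28.9 ± 5.36 FPKM (SD, n = 4; adjusted p = 0.593 and 0.0163). The origin recognition subunit Orc6 stood at 26.7, 29.7, 30.2 and 31.4 FPKM in IL-10- and 22.1, 25.5, 30.4 and 28.7 FPKM in IL-10+ replicates 1 to 4. In replicate 3 its 2 values were nearly equal, and its adjusted p with the block was 0.0497, which both other scalings raised above the threshold (0.101 and 0.111). Orc1, the subunit that marks licensing-competent origins, had 7.31 ± 1.82 and 7.72 ± 2.02 FPKM and passed in neither fit.

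**Figure D2:**
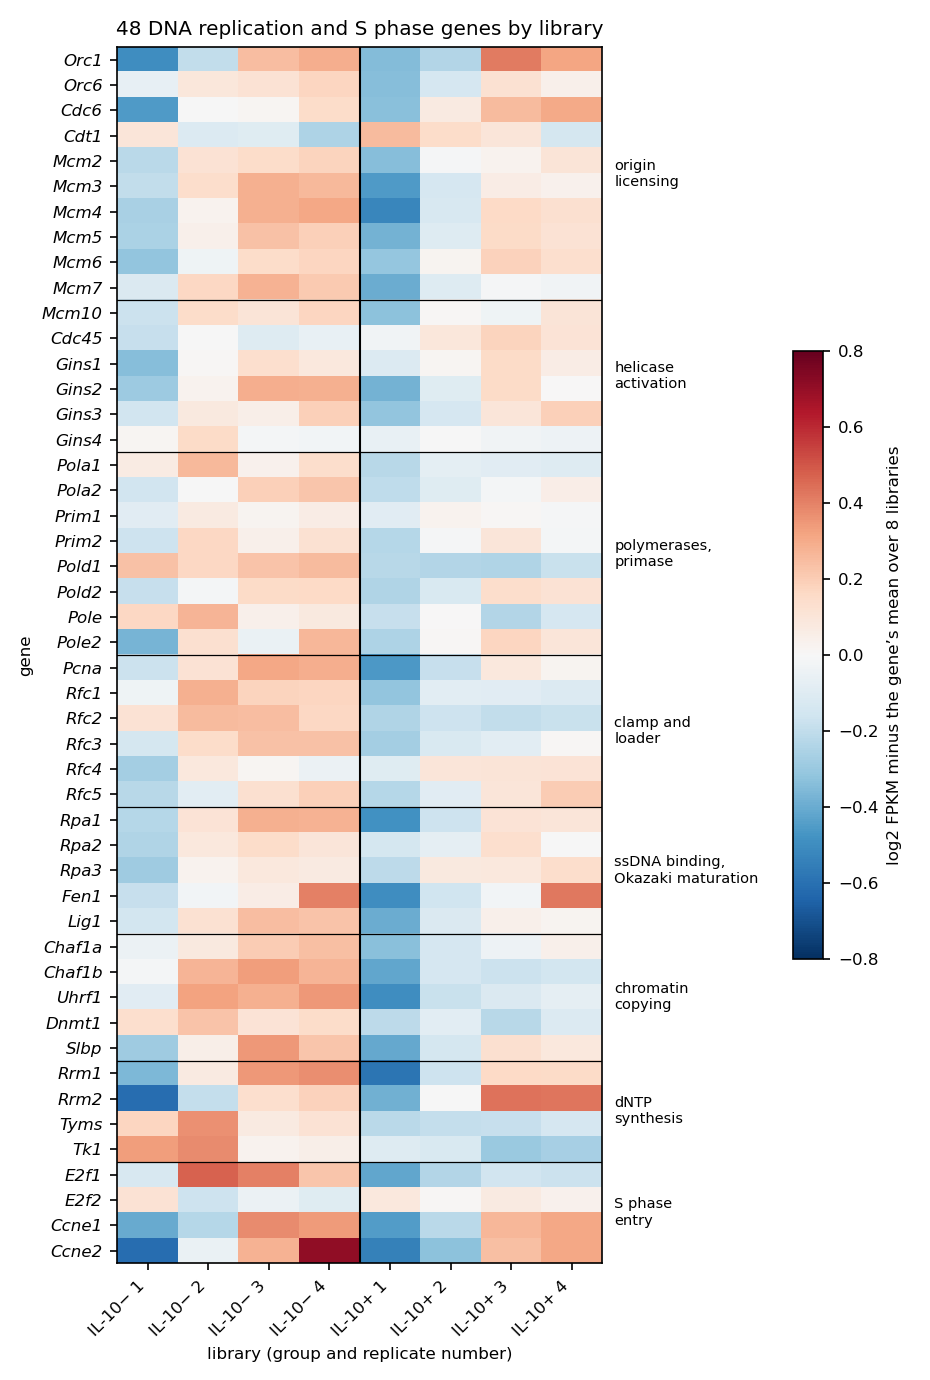
Each of the 48 genes (rows, by role) in each of the 8 libraries (columns), as log2 FPKM minus the gene's own mean over the libraries; red is above and blue below that mean. Replicate 1 of either group is the bluest column in most rows, being the lowest of its group for 39 genes in IL-10- and 42 genes in IL-10+ cells.

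Of the 6 helicase activation genes none passed without the block, where 9.18% of all tested genes were called lower and 10.6% higher. With the block these shares of all genes were 33.3% and 20.4%. Cdc45, a component of the active helicase, was the most abundant at 47.9, 54.2, 50.6 and 52.3 FPKM in IL-10- and 53.3, 58.0, 61.7 and 58.8 FPKM in IL-10+ replicates 1 to 4. All IL-10+ libraries but replicate 1 lie above all IL-10- libraries. The log2 change was 0.17 (SE 0.0692, limma adjusted p = 0.117 without and 0.0103 with the block), and this gene also passed within replicates 3 and 4 alone (0.0324). Its partners in the helicase, the GINS subunits, were not called higher. Gins2 went from 12.4 ± 2.23 to 11.1 ± 1.66 FPKM and was called lower with the block (adjusted p = 0.026), although not when either scaling was added (0.0602 and 0.0703). Exons of any other gene on either strand cover 67.3% of the exon length of Gins2, Gse1 having the largest part. Gins1, Gins3 and Gins4 had log2 changes of 0.055, -0.074 and -0.063 and passed in neither fit. Mcm10, which helps to start the helicase, was called lower with the block (19.7 ± 2.06 to 18.1 ± 2.24 FPKM, adjusted p = 0.0163).

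Without the block Pold1, Pole and Pola1, the catalytic subunits of polymerases δ, ε and α, were called lower, and Pold2, Pole2 and Pola2 were not. These are 3 of 8 genes (4 with the block), where 9.18% of all tested genes were called lower (33.3% with the block). The calls did not follow the kind of subunit throughout. Pold3, a further δ subunit given below, was also called lower, and Pola2 was lower within all 4 numbers. Of the calls of Pold1, Pole and Pola1 only that of Pold1 held without any 1 library and under both other scalings. Pold1 (chromosome 7, 44532746 to 44548849, minus strand), the catalytic subunit of polymerase δ, had the smallest p of all 48. It stood at 64.2, 61.1, 63.8 and 65.0 FPKM in IL-10- and at 46.7, 46.4, 46.1 and 48.2 FPKM in IL-10+ replicates 1 to 4. The groups are far apart relative to their spread, and unlike most members Pold1 was not low in replicate 1. The fall was 26.3% (log2 change -0.43, SE 0.0536, limma adjusted p = 0.000663), and it passed within replicates 1 and 2 (0.047), within 3 and 4 (0.00435) and without any 1 of the 8 libraries (at most 0.00463).

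Pold2, the second subunit of the same polymerase and the most abundant gene of this group, held 67.5, 75.6, 85.1 and 85.5 FPKM in IL-10- and 64.6, 70.2, 84.4 and 82.8 FPKM in IL-10+ replicates 1 to 4. The groups overlap almost wholly (log2 change -0.056, SE 0.114, adjusted p = 0.776, with the block 0.133). Pole (chromosome 5, 110286306 to 110337474, plus strand), the catalytic subunit of polymerase ε, stood at 19.9, 21.4, 18.3 and 18.7 FPKM in IL-10- and 15.7, 17.8, 15.1 and 16.2 FPKM in IL-10+ replicates 1 to 4. No value overlaps (log2 change -0.26, SE 0.0755, limma adjusted p = 0.0441), but the call remained only without IL-10+ replicate 2 (0.0405) and was lost without any other single library (0.0523 to 0.124). Pole2, its second subunit, had 10.4 ± 1.91 and 10.5 ± 1.27 FPKM and passed in neither fit.

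Pola1 (chromosome X, 93304767 to 93632155, minus strand), the catalytic subunit of polymerase α, held 14.5, 16.6, 14.2 and 15.2 FPKM in IL-10- and 11.9, 13.1, 13.0 and 12.9 FPKM in IL-10+ replicates 1 to 4. The groups do not overlap (log2 change -0.23, SE 0.0670, limma adjusted p = 0.0431). The call was lost without any 1 of the 8 libraries (0.0512 to 0.0996), while the block gave 0.00533. Pola2, its regulatory subunit, went from 50.3 ± 6.01 to 45.9 ± 3.5 FPKM (SD, n = 4) and was called lower with the block (0.026), not with either scaling added (0.0667 and 0.0758). The primase subunits Prim1 and Prim2, with log2 changes of -0.032 and -0.072, passed in neither fit.

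**Figure D3:**
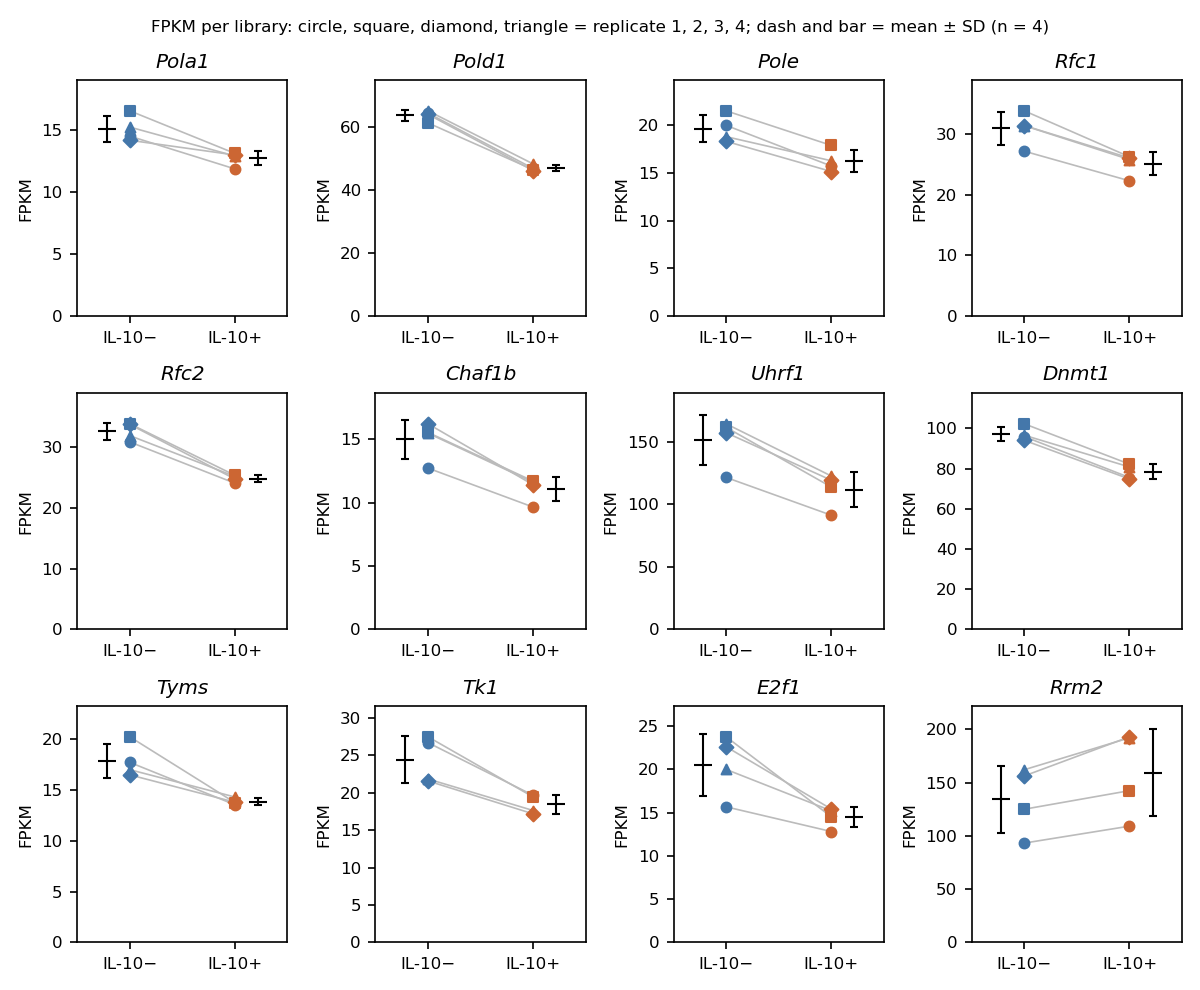
FPKM in each library of the 11 genes called lower without the block and of Rrm2, with grey lines joining libraries of the same replicate number and black marks giving mean ± SD (n = 4). All grey lines of the 11 genes slope down, for example 64.2 to 46.7 FPKM for Pold1 in replicate 1, and all 4 lines of Rrm2 slope up.

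Pcna, the clamp that holds polymerases on DNA, was the most abundant of the 48 genes. It stood at 243, 297, 339 and 334 FPKM in IL-10- and 199, 241, 289.9 and 277 FPKM in IL-10+ replicates 1 to 4. Each IL-10+ library was lower than its partner, yet the groups overlap because IL-10- replicate 1 lies within the IL-10+ range (log2 change -0.27, SE 0.147, limma adjusted p = 0.243 without and 0.000679 with the block).

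The loader subunits split. Rfc2 (chromosome 5, 134581366 to 134601805, plus strand) stood at 30.8, 33.8, 33.7 and 31.9 FPKM in IL-10- and at 24, 25.3, 24.7 and 25.2 FPKM in IL-10+ replicates 1 to 4. The groups are clearly separate (log2 change -0.38, SE 0.0575, limma adjusted p = 0.00212, at most 0.0101 without any 1 library). Rfc1 (chromosome 5, 65261850 to 65335670, minus strand), the large subunit, held 27.1, 33.7, 31.3 and 31.3 FPKM in IL-10- and 22.3, 26.2, 26.0 and 25.7 FPKM in IL-10+ replicates 1 to 4. Its values do not overlap (log2 change -0.29, SE 0.0856, limma adjusted p = 0.046), but the call remained only without IL-10- replicate 1 (0.0185) and was lost without any other single library (0.0804 to 0.112). Rfc3, with 15.7, 19.1, 20.4 and 20.3 against 14.3, 15.9, 16.3 and 17.4 FPKM in replicates 1 to 4, overlapped through IL-10- replicate 1 and was called lower with the block (adjusted p = 0.152 and 0.00472). Rfc4 was called higher with the block (43.9 ± 4.52 to 47.2 ± 3.12 FPKM, adjusted p = 0.461 and 0.0484), and Rfc5 had a log2 change of -0.0094 and passed in neither fit.

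None of the 5 genes of single strand binding and Okazaki maturation passed without the block, and 2 were called lower with it. All tested genes were called lower at 9.18% and higher at 10.6% without the block, and at 33.3% and 20.4% with it. Lig1, the ligase that seals Okazaki fragments, stood at 70.8, 85.1, 92.8 and 91.8 FPKM in IL-10- and at 59.5, 72.4, 80.4 and 79.5 FPKM in IL-10+ replicates 1 to 4. Its groups overlap only through the low replicate 1 of the IL-10- group (log2 change -0.22, SE 0.122, limma adjusted p = 0.251 without and 0.000934 with the block). Rpa1, the large subunit of the single strand binding protein, went from 45.8 ± 7.13 to 39.3 ± 7.24 FPKM and was called lower with the block (0.00212), whereas Rpa2 and Rpa3 (log2 changes -0.044 and 0.047) were not. Fen1, the flap nuclease, was listed at only 0.935 to 1.77 FPKM, from as few as 62 recovered reads. Exons of any other gene on either strand cover 84.2% of its exon length, Gm10143 having the largest part. The level of Fen1 is uncertain, because how reads in such overlaps were counted is unknown here. Exons of 17 members overlap another gene, and for 3 (Fen1, Gins2 and Chaf1a) by more than 50% of their length.

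All 5 genes of chromatin copying fell with the block, and 3 of them also without it. In these fits 33.3% and 9.18% of all tested genes were called lower. Uhrf1 (chromosome 17, 56303321 to 56323486, plus strand), which brings the maintenance methyltransferase to newly copied DNA, stood at 121.5, 162, 157 and 164 FPKM in IL-10- and 91.3, 114, 119 and 123 FPKM in IL-10+ replicates 1 to 4. IL-10- replicate 1 falls within the IL-10+ range, so this is the only one of the 11 called genes whose groups overlap. The fall was 26.1% (log2 change -0.43, SE 0.127, limma adjusted p = 0.0461, with the block 0.00019), and without IL-10- replicate 1 the adjusted p was 0.0122, while leaving out any other single library ended the call (0.0587 to 0.112).

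Dnmt1 (chromosome 9, 20907209 to 20959888, minus strand), that maintenance methyltransferase, held 95.9, 102, 94.1 and 96.6 FPKM in IL-10- and 75.6, 82.2, 74.8 and 80.8 FPKM in IL-10+ replicates 1 to 4. The groups are separate and replicate 1 is not low (log2 change -0.31, SE 0.0614, limma adjusted p = 0.00838, at most 0.0338 without any 1 library). Chaf1b (chromosome 16, 93883901 to 93906115, plus strand), the middle subunit of the histone chaperone CAF-1, stood at 12.7, 15.5, 16.2 and 15.5 FPKM in IL-10- and 9.65, 11.7, 11.4 and 11.6 FPKM in IL-10+ replicates 1 to 4. It fell by 26.0% with no overlap (log2 change -0.40, SE 0.0928, limma adjusted p = 0.0165, at most 0.0486 without any 1 library).

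Chaf1a, the large CAF-1 subunit, had 43.2, 47.2, 51.3 and 52.7 FPKM in IL-10- and 35.3, 40.6, 43.4 and 45.9 FPKM in IL-10+ replicates 1 to 4. Here 2 of the IL-10+ libraries reach into the IL-10- range (log2 change -0.23, SE 0.0989, limma adjusted p = 0.143, with the block 0.00123). Exons of any other gene on either strand cover 52.5% of the exon length of Chaf1a, Ubxn6 having the largest part. Slbp, which binds the end of histone messages, went from 24.7 ± 4.47 to 21.9 ± 3.61 FPKM (adjusted p with the block 0.0056).

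The 4 genes of deoxynucleotide synthesis went in opposite directions. Tyms (chromosome 5, 30058202 to 30073617, minus strand), thymidylate synthase, stood at 17.7, 20.3, 16.5 and 17.0 FPKM in IL-10- and 13.6, 13.8, 13.8 and 14.3 FPKM in IL-10+ replicates 1 to 4. The IL-10+ libraries lie close together below all IL-10- libraries (log2 change -0.34, SE 0.0720, limma adjusted p = 0.0109, at most 0.0371 without any 1 library). Tk1 (chromosome 11, 117815526 to 117826092, minus strand), the cytosolic thymidine kinase of dividing cells, held 26.7, 27.5, 21.6 and 21.8 FPKM in IL-10- and 19.6, 19.4, 17.2 and 17.6 FPKM in IL-10+ replicates 1 to 4. Unlike most members it was higher in replicates 1 and 2 than in 3 and 4 of both groups, and no value overlaps (log2 change -0.38, SE 0.0973, limma adjusted p = 0.0269). Tk1 passed within replicates 1 and 2 (0.0357) and within 3 and 4 (0.0155), but its call was lost without IL-10- replicate 1 (0.0587) or 2 (0.0687) and without IL-10+ replicate 2 (0.0518), 3 (0.0816) or 4 (0.0706).

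Rrm2, the small subunit of ribonucleotide reductase and the most abundant gene of this group, stood at 93.3, 125, 156 and 162 FPKM in IL-10- and at 109, 143, 193 and 192 FPKM in IL-10+ replicates 1 to 4. Replicate 1 is low and replicates 3 and 4 are high in both groups, and within each number the IL-10+ library is the higher (log2 change 0.24, SE 0.230, limma adjusted p = 0.516 without and 0.00141 with the block). Rrm1, the large subunit of the same enzyme, went the other way, from 43.0 ± 9.34 to 37.1 ± 8.38 FPKM (SD, n = 4; adjusted p = 0.517 and 0.00116). Rrm1 and Rrm2 thus differ in sign in every replicate number, although each is undecided without the block.

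Of the 4 S phase entry genes only E2f1 was called, lower with and without the block. Among all tested genes 9.18% were called lower without the block and 33.3% with it. E2f1 (chromosome 2, 154559407 to 154569892, minus strand), an activating E2F factor, held 15.7, 23.8, 22.6 and 20 FPKM in IL-10- and 12.8, 14.5, 15.4 and 15.2 FPKM in IL-10+ replicates 1 to 4. The groups just fail to overlap, and the fall of 29.3% had the largest log2 change of the list (-0.46, SE 0.127, limma adjusted p = 0.0347, with the block 0.0031). Its call remained only without IL-10- replicate 1 (0.00387) and was lost without any other single library (0.0624 to 0.0883). E2f2, another activating factor and the most abundant of the group, stood at 41.3, 33.9, 36.8 and 35.6 FPKM in IL-10- and 40.3, 38.3, 40 and 39.0 FPKM in IL-10+ replicates 1 to 4. Its groups overlap through IL-10- replicate 1 and it passed in neither fit (log2 change 0.095, SE 0.0715, adjusted p = 0.4 and 0.0963). The cyclins Ccne1 (22.8 ± 6.10 and 22.1 ± 5.47 FPKM) and Ccne2 (7.64 ± 2.83 and 6.68 ± 1.88 FPKM) passed in neither fit.

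Since several complexes held subunits on both sides of the threshold, the ratio of 2 subunits within a library was computed for 8 pairs. The pairs were chosen after the levels were seen, so the ratios are a description with no test. Rrm1 over Rrm2 was 0.312 to 0.329 in the IL-10- and 0.226 to 0.245 in the IL-10+ libraries, a range far tighter than that of either gene alone. Pold1 over Pold2 was 0.750 to 0.952 against 0.546 to 0.723, and Chaf1a over Chaf1b was 3.04 to 3.40 against 3.47 to 3.96. These 3 ratios did not overlap between the groups. The other 5 did overlap, namely Pola1 over Pola2, Prim1 over Prim2, Pole over Pole2, Ccne1 over Ccne2 and E2f1 over E2f2. Within all 4 numbers, however, E2f1 over E2f2 and Pole over Pole2 were lower in the IL-10+ library (mean log2 difference -0.58 and -0.29). The remaining ratios that overlapped changed direction between numbers.

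**Figure D4:**
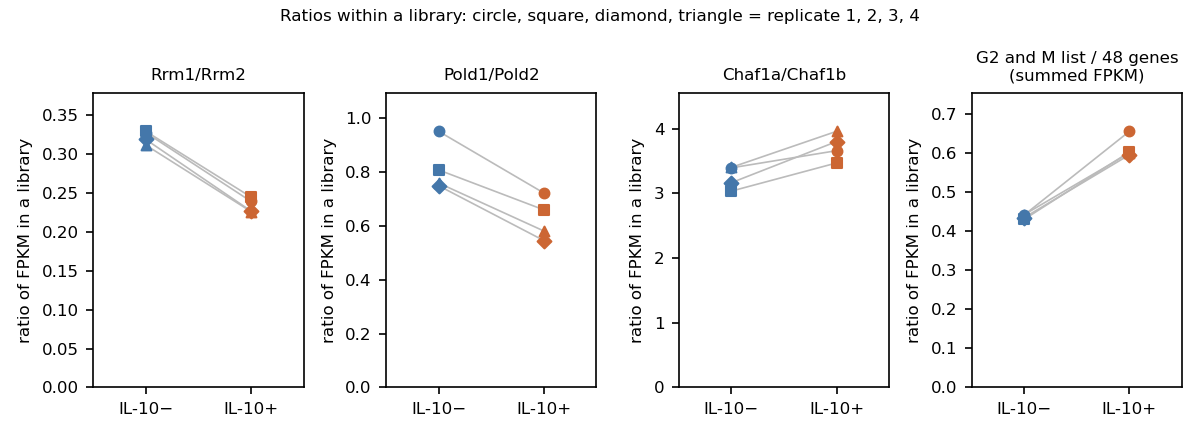
Ratio of FPKM within each library for the 3 subunit pairs whose groups did not overlap, and the summed FPKM of 25 G2 and M phase genes over that of the 48 genes, with lines joining libraries of the same replicate number. Rrm1 over Rrm2 runs from about 0.312 to 0.329 down to 0.226 to 0.245, and the last ratio rises from 0.431 to 0.443 to 0.596 to 0.656.

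Replicates 3 and 4 differed from 1 and 2 across the whole table. Among the members, the mean of replicates 3 and 4 lay above that of 1 and 2 in both groups for 40 (83.3%), below it in both for 5 (10.4%), and the order differed for 3. Of all tested genes 38.3% lay above and 44.5% below in both groups. The difference between replicate sets was larger than that between IL-10+ and IL-10- cells for 30 members (62.5%) and for 50% of all tested genes. Within replicates 1 and 2 alone only Pold1 and Tk1 passed, both lower, of 47 tested members, where 3.13% of the genes tested there were called lower. Within replicates 3 and 4 alone 17 members fell and 2 rose (Cdc45 and Rrm2), against 13.5% lower and 11.9% higher among the genes tested there. What separates the replicate sets is not given in the labels, and its part in the counts was not tested beyond these fits.

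The summed level of the 48 genes was 2150, 2564, 2762 and 2767 FPKM in IL-10- and 1927, 2267, 2541 and 2518 FPKM in IL-10+ replicates 1 to 4. Each IL-10+ library was below its partner, while the groups overlap. Other genes of the pathway were counted from lists that were themselves drawn up with earlier results of these data known. Of 40 further replication factors 2 fell and 1 rose, with a median log2 change of -0.12, where 9.18% of all tested genes were called lower and 10.6% higher. None fell without IL-10- replicate 2 or IL-10+ replicate 1 or 3, 1 fell without IL-10- replicate 3 or 4 or IL-10+ replicate 2 or 4, and 5 fell without IL-10- replicate 1. The falls were Pold3, a polymerase δ subunit (25.2 ± 2.11 to 19.7 ± 2.17 FPKM, adjusted p = 0.0353), and Wdhd1, which ties polymerase α to the helicase (23.7 ± 1.71 to 19.4 ± 1.04 FPKM, 0.0263). The rise was Top1, the topoisomerase that relieves supercoils, from 25.4 ± 4.16 to 46.2 ± 7.61 FPKM (1.82-fold, log2 change 0.84, limma adjusted p = 0.00451), larger than any change among the 48. With the block 27 of these 40 fell and 4 rose, against 33.3% and 20.4% of all tested genes.

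For the next 2 lists the shares to compare are those of all tested genes, 9.18% lower and 10.6% higher (33.3% and 20.4% with the block). Of 20 further genes of nucleotide supply, 2 fell (11 with the block, which also called 2 higher). They were Impdh2 of guanine nucleotide synthesis (121 ± 5.41 to 95.0 ± 6.03 FPKM, limma adjusted p = 0.00758) and Paics of purine synthesis (119 ± 12.9 to 90.2 ± 9.19 FPKM, 0.032). Of 22 tested genes that control the passage from G1 to S, 3 fell and 1 rose (11 and 6 with the block). Ccnd3, a D-type cyclin, fell from 17.1 ± 4.57 to 9.66 ± 1.57 FPKM (0.0246), Mybl2, itself an E2F target, from 65.9 ± 4.10 to 46.2 ± 3.39 FPKM (0.00197) and Cdk2, the kinase of S phase entry, from 25.4 ± 1.11 to 19.5 ± 0.310 FPKM (0.00229). Cks1b, a small subunit of Cdk complexes, rose from 116 ± 9.95 to 149 ± 4.35 FPKM (0.00979).

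Cell cycle inhibitors and genes of the later phases held calls in the other direction. Among all tested genes 10.6% were called higher and 9.18% lower, and with the block 20.4% and 33.3%. Of 11 tested cell cycle inhibitors 3 rose and none fell (6 and 2 in the blocked fit), and they had a median log2 change of 0.24. That median ranged from 0.10 without IL-10+ replicate 2 to 0.38 without IL-10+ replicate 4, and was also more than 1.5 times off without IL-10- replicate 1 (0.37), 3 (0.14) or 4 (0.12) or IL-10+ replicate 1 (0.12). The summed inhibitor level overlapped, at 158 to 233 FPKM in IL-10- and 171 to 223 FPKM in IL-10+ libraries. Cdkn2b rose from 1.5 ± 0.495 to 4.79 ± 0.165 FPKM (3.19-fold, limma adjusted p = 0.000291), Cdkn2a from 4.72 ± 2.23 to 11.6 ± 2.65 FPKM (2.45-fold, 0.025) and Cdkn2c from 14.3 ± 0.540 to 18.7 ± 0.602 FPKM (1.30-fold, 0.00247). Cdkn2b and Cdkn2c encode proteins that restrain the kinases of G1. For Cdkn2a a value per gene does not tell its different transcripts apart. Of 25 G2 and M phase genes 8 rose and none fell (18 and 0 with the block). All 25 log2 changes lay above 0, where 60.7% of all tested genes lay below 0, and their median was 0.33. Without IL-10- replicate 1 or 3 or IL-10+ replicate 4, and within replicates 3 and 4 alone, 1 of the 25 lay below 0. Without IL-10+ replicate 3 or 4 the count was 5, the calls of Cdc20, Cenpf and Ube2c being lost. The same calls were lost without IL-10- replicate 2, where Nusap1 was added and the count was 6. The largest were Cdc25b, a phosphatase that starts mitosis (25.0 ± 1.12 to 53.6 ± 1.55 FPKM, 2.15-fold, adjusted p = 1.84e-05), Cdc20, an activator of the anaphase-promoting complex (132 ± 27.1 to 202 ± 27.9 FPKM, 0.0266), and Cdc25c (11.8 ± 1.41 to 17.3 ± 1.55 FPKM, 0.00776). The call of Ccnd3, Cdkn2a, Cdc20, Wdhd1, Pold3 and Paics was lost without at least 1 single library (adjusted p up to 0.0693, 0.0716, 0.0788, 0.0831, 0.0912 and 0.0839).

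**Figure D5:**
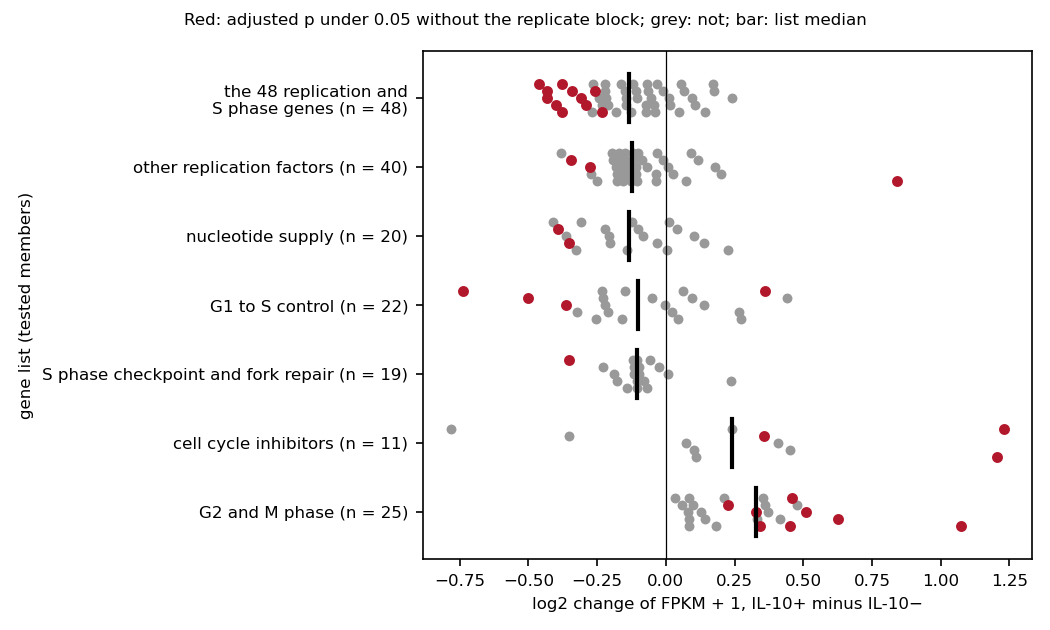
Log2 change of FPKM + 1 for the tested genes of the 48-gene list and of 6 other cell cycle lists, 1 point per gene, red where called without the block, with a bar at each list's median. The medians are -0.13 for the 48 genes and 0.33 for the G2 and M phase genes, all 25 of which lie right of 0.

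Set side by side in each library, the summed G2 and M phase level divided by that of the 48 genes was 0.431 to 0.443 in the 4 IL-10- and 0.596 to 0.656 in the 4 IL-10+ libraries. This ratio does not overlap and, unlike the sums themselves, hardly varies with the replicate number in IL-10- cells. It is given with no test, since the lists were chosen with results in view. Start sites also differed between the lists in their letters. The E2F words occurred in 10 of 33 further replication factors with a start site (30.3%) and in 1 of 20 G2 and M phase genes (5%), against 40% of the members. The word TTTGAA, known from promoters of G2 and M phase genes, occurred on either strand in 14 of those 20 (70%), in 7 of 40 members (17.5%) and in 20.2% of all genes. The word CCAAT occurred in 18 of the 20 (90%), in 26 of the 40 (65%) and in 41.1% of all genes. Among tested genes TTTGAA occurred in 14.6% and CCAAT in 43.7%. Counting only the 250 bases before the start, TTTGAA occurred in 8 of the 20 (40%) and in 18.3% of all genes. E2F words occurred there in 5 of the 33 further replication factors (15.2%) and in 2.16% of all genes.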

How the data were processed

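FPKM were computed by the authors and deposited as 1 table of 26589 genes and 8 libraries, 4 per group. HISAT2 2.1.0, HTSeq 0.6.0 and the build mm10 are named per the submitters' processing notes. Annotation, strand setting and handling of reads in overlapping genes were not given in the sources used here. Names and positions came from GENCODE M21 of GRCm38, the same build, in which 26517 identifiers were found and 72 were not.

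Values times gene length gave whole reads within 0.05 for 93.4% to 93.6% of values above 0, which set the library totals. FPKM are not counts, so limma 3.58.1 in R 4.3.3 was run on log2(FPKM + 1), its variance trend on (pseudocount 1), for the 11329 genes that reached 1 FPKM in 4 or more libraries. Tests were two-sided, adjusted by Benjamini-Hochberg, with a threshold of 0.05. On this scale the changes of low genes are understated. A percent or fold compares group means in FPKM. The fit without the block was tested on simulated data with larger changes than those of the members and no spread shared by replicate number. That test covers neither the blocked fit nor changes as small as those of the members. No 2 libraries of a group were near-copies (chi-square over its degrees of freedom 9.82 to 92.2, from recovered reads).

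Replicate numbers were taken to pair the samples, since all 4 same-number correlations exceeded 0.1. Different numbers within replicates 1 and 2 and within 3 and 4 exceeded it too (0.279 to 0.435), so that threshold alone does not single out the pairs. This pairing comes from the data, not from the labels, and blocked values stand beside results they change. Alternatives were other pseudocounts, filters, scalings and replicate sets, the block, and leaving out each library.

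The 48 genes, the other lists and the replicate sets were chosen with earlier results of these data known. Named were all members called with or without the block and the most abundant of each role, with library values for the 20 of smallest p and those most abundant. From other lists up to 3 called genes with the largest change, or the most abundant, were named. Other names that complete a small count were added after their values were seen. Start site sequences are from RefSeq (GRCm38.p6). The result of 1 of the other lists, on S phase checkpoint and fork repair genes, is not reported here.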

Additional observations from a re-analysis of the deposited data

Results flagged for a closer look

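Each gene and subunit ratio was checked within each group of 4 libraries for a library far from the other 3 (a gap of more than 0.829 of the group's range), and 7 of 112 checks were marked, where chance marks about 1 in 20 groups. All 7 concern replicate 1, in each case the lowest of its group. In the IL-10+ group replicate 1 stood apart at 11.9 FPKM for Pola1 (the others 12.9 to 13.1), 22.3 FPKM for Rfc1 (25.7 to 26.2), 42.5 FPKM for Rfc4 (48.5 to 48.9) and 9.65 FPKM for Chaf1b (11.4 to 11.7), and at 0.318 for the ratio of E2f1 to E2f2 (0.380 to 0.390). In the IL-10- group it stood apart at 33.6 FPKM for Rpa3 (41.8 to 43.5) and 121.5 FPKM for Uhrf1 (157 to 164). Without IL-10+ replicate 1 the limma adjusted p rose to 0.0996 for Pola1 and 0.0966 for Rfc1 and to 0.0362 for Chaf1b, and without IL-10- replicate 1 it fell to 0.0122 for Uhrf1.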

How the results depend on the processing

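The replicate block raised the count of called genes from 2236 to 6083 (5724 with median-of-ratios scaling added, 5666 with scaling without immunoglobulin and mitochondrial genes), that of called members from 11 to 32 (29 and 29) and that of the 6 other cell cycle lists from 21 to 94 (87 and 85). Within replicates 1 and 2 these counts were 1057, 2 and 9, and within replicates 3 and 4 the members numbered 19 and the other lists 40. Without the block, called members numbered 6 with median-of-ratios scaling, 7 when immunoglobulin and mitochondrial genes were left out of the scaling, and 5 with no filter on low values, where more genes enter the adjustment, and remained 11 with pseudocounts of 0.1 and 0.5 or a filter of 5 FPKM. Leaving out 1 library gave 5 to 9 members, 1550 to 2045 genes and 15 to 27 genes of the other lists. Both scalings moved the median log2 change of all genes from -0.057 to -0.031 and -0.028. The share of members with an E2F word fell from 40% to 25% when only bases before the start were read. Directions changed under some setting for 13 members, none of them among the 11 called. With single libraries left out, log2 changes ran from -0.065 to 0.18 for Orc1, -0.21 to 0.0024 for Mcm5, -0.087 to 0.12 for Mcm6, -0.044 to 0.11 for Gins1, -0.14 to 0.0081 for Gins3, -0.13 to 0.015 for Pold2, -0.098 to 0.095 for Pole2, -0.080 to 0.061 for Rfc5, -0.037 to 0.12 for Rpa3, -0.16 to 0.0090 for Fen1, -0.18 to 0.094 for Ccne1 and -0.34 to 0.042 for Ccne2. Within replicates 3 and 4 Gins1 was at -0.0032 and Gins3 at 0.021, and within 1 and 2 Pole2 was at -0.00063. Prim1 was at 0.0018 when immunoglobulin and mitochondrial genes were left out of the scaling, and Rfc5 at 0.021 and 0.024 with the 2 scalings, in either case with or without the block. The cause of these changes was not tested. With 4 libraries a group the SE of a log2 change was 0.0536 to 0.259 over the members, which limits what the fit without the block could call.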
